A study of Mus musculus with 10 samples.

Results

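The genes described here are the transforming growth factor beta (TGF-beta) ligands and the proteins that hold them in latent form: Tgfb1, Tgfb2 and Tgfb3, the latent TGF-beta binding proteins Ltbp1, Ltbp2, Ltbp3 and Ltbp4, and Lrrc32. They were chosen by gene name, and all 8 were found among the 54532 genes of the count table. RNA came from primary mouse lung fibroblasts kept in DMEM with 10% fetal bovine serum and antibiotics, without further stimulus. There were 5 wild-type libraries and 5 labelled Mrc2 knockout, all with the same batch label. Mrc2 encodes a receptor that takes up collagen for breakdown inside the cell. The sources used here do not give the mouse strain, the age of the mice or the way the allele was made. The titles call the libraries biological replicates, and nothing further says that each came from its own animal, so p-values measure the spread between these samples.

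TGF-beta is made as a precursor that the protease furin cuts into a growth factor and a propeptide, and the propeptide stays wrapped around the growth factor and keeps it silent. Most cells secrete this latent pair bound to an LTBP, which ties it to fibrillin and fibronectin fibres in the matrix, whereas LRRC32 (also called GARP) holds it on the cell surface. Integrins and proteases later free the growth factor, which drives fibroblasts to make matrix and contractile proteins and is a central signal in lung scarring. Read counts report messenger RNA only, so secretion, storage and activation of the proteins were not measured.

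Libraries held 19603933 to 29944615 counts, and each of the 8 genes had at least 519 counts in every library. Mrc2 itself averaged 843 ± 176 CPM (counts scaled by library size and the trimmed mean of M-values) in wild-type libraries and 242 ± 30.4 in knockout libraries (SD, n = 5 each), and its groups were apart (log2 fold change -1.80, edgeR adjusted p = 0.00293). Knockout replicate 5 stood apart in its weight on the tests, since the number of genes called by edgeR went from 2 to 203 without it. Of 8 fibroblast markers all 8 passed the filter on low counts, and their summed level ranged from 15712 to 27565 CPM in wild type and from 22587 to 40363 CPM in knockout. Most of this sum came from the collagen genes Col1a1, Col1a2 and Col3a1, which are also listed as TGF-beta targets and had log2 fold changes of 0.79, 0.50 and 1.28, while Thy1 (0.07), Vim (-0.24) and Lum (-0.77) gave other values. None of the 8 passed edgeR's adjusted test. The cultures also held leukocyte transcripts. All 14 leukocyte markers passed the filter and none was at 0. Their sum ranged from 2983 to 14649 CPM in wild type and from 3780 to 8224 CPM in knockout. All 6 mesothelial markers had a lower mean in knockout, with log2 fold changes from -1.54 for Msln to -0.13 for Lrrn4 and none past edgeR's adjusted test, and their sum ranged from 115 to 598 CPM in wild type and from 90.8 to 293 CPM in knockout. The 9 epithelial markers summed to 6.61 to 58.9 CPM in wild type and to 6.20 to 19.2 CPM in knockout, and 3 of them passed the filter, among them Krt8 (-0.91) and Krt18 (-1.04), which mesothelial cells also make. The slope of log2 level on gene length, per 10-fold of length and relative to the mean library, lay between 0.19 and 0.47 for 4 knockout libraries, and the fifth of them, replicate 5, had the lowest slope of all 10 at -0.53. In wild type it was 0.29 in replicate 2 and -0.51 to -0.01 in the other 4. The part of cell make-up in the values that follow was not tested beyond the leukocyte score.

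None of the 8 genes passed edgeR's quasi-likelihood test at a Benjamini-Hochberg adjusted p under 0.05 over the 14360 genes tested, where 0.0139% of genes passed. The log2 fold change of knockout over wild type was above 0 for 7 of the 8 and below 0 for Tgfb1, with a median of 0.29 against -0.01 over all genes tested, 48.4% of which lay above 0. Unadjusted p was under 0.05 for 2 genes, Ltbp4 and Lrrc32, both higher in knockout, against 13.3% of all genes tested (7.19% higher and 6.1% lower in knockout). The groups did not overlap for 1 gene, Ltbp4, against 2.05% of all genes tested (0.961% higher and 1.09% lower in knockout). DESeq2 called 1 of the 8, again Ltbp4, against 1.69% of genes (1.02% higher in knockout), and limma-voom called 0, against 0.00696%. Without knockout replicate 5, edgeR called 1.39% of genes (0.884% higher in knockout) and 0 of the 8.

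**Figure D1:**
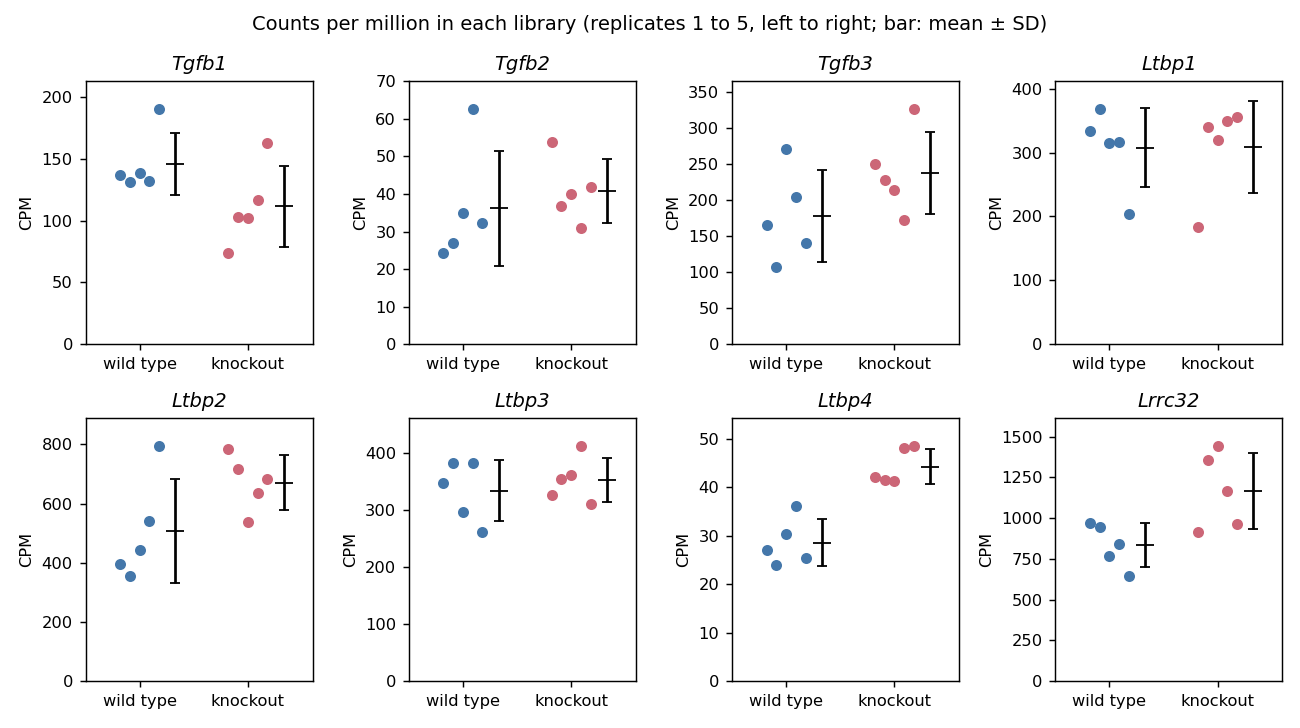
Level of each gene in CPM (vertical axis from 0, a scale of its own in each panel) in the 5 wild-type and 5 knockout libraries, 1 point per library with replicates 1 to 5 from left to right, and the mean ± SD at the right of each group. The groups are apart for Ltbp4, where the highest wild-type library had 36.1 CPM and the lowest knockout library 41.3 CPM, and overlap in the other panels.

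Among the ligands, Tgfb1 was the one with a lower mean in knockout. Tgfb1 (ENSMUSG00000002603; mm10 chromosome 7, 25687002 to 25705077, plus strand) encodes the ligand most studied in fibrosis. It lay at 137, 131, 139, 132 and 190 CPM in wild-type replicates 1 to 5 and at 73.5, 103, 102, 117 and 163 CPM in knockout replicates 1 to 5. Of the knockout libraries 4 lay below every wild-type library, and replicate 5 lay above the wild-type mean of 146 CPM. Knockout over wild type, the log2 fold change was -0.38 (SE 0.19, edgeR adjusted p = 0.405), with a 95% interval of -0.80 to 0.04. Without knockout replicate 5 it was -0.56 (edgeR adjusted p = 0.0606), and without any other library it lay between -0.26 and -0.42.

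Leukocytes make Tgfb1 as well, and the library with the highest Tgfb1 level, wild-type replicate 5, also had the highest leukocyte marker score. This score, the mean log2 CPM of the 14 markers after centring each over the 10 libraries, was 1.20 in that library, between -0.91 and 0.45 in the other wild-type libraries and between -0.42 and 0.46 in knockout, highest in replicate 5. The lowest score and the lowest Tgfb1 level were in different libraries. Wild-type replicate 4 had the lowest score, -0.91, with Tgfb1 at 132 CPM. Knockout replicate 1 had the lowest Tgfb1, 73.5 CPM, with a score of -0.27. With the score as a covariate the log2 fold change of Tgfb1 was -0.36 (edgeR adjusted p = 0.368). Beyond this fit the part of leukocytes in the level of Tgfb1 was not tested. In RNA from whole cultures, fewer cells of a type and less RNA per cell cannot be told apart.

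Tgfb2 (ENSMUSG00000039239; chromosome 1, 186622792 to 186705989, minus strand), a ligand known for its role in heart and vessel development, had the lowest level per length of the 3 ligands. It lay at 24.2, 26.8, 34.9, 62.6 and 32.4 CPM in wild-type replicates 1 to 5 and at 53.9, 36.9, 40.1, 31.0 and 41.8 CPM in knockout replicates 1 to 5. Every knockout library lay within the wild-type range, and wild-type replicate 4 was the highest of all 10. On the log2 scale the fold change was 0.17 (SE 0.25, edgeR adjusted p = 0.750), with a 95% interval of -0.36 to 0.71. It was 0.46 without wild-type replicate 4 and 0.05 without knockout replicate 1, the highest knockout library.

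Tgfb3 (ENSMUSG00000021253; chromosome 12, 86056745 to 86079041, minus strand), a ligand needed for palate fusion and lung development in mice, had the highest level per length. It lay at 166, 107, 272, 204 and 140 CPM in wild-type replicates 1 to 5 and at 250, 228, 214, 173 and 326 CPM in knockout replicates 1 to 5. Of the knockout libraries 4 lay above the wild-type mean of 178 CPM, and 1 lay above every wild-type library. This put the log2 fold change at 0.42 (SE 0.24, edgeR adjusted p = 0.445), with a 95% interval of -0.10 to 0.95. It was 0.28 without wild-type replicate 2, the lowest library, and also without knockout replicate 5, the highest, and 0.62 without wild-type replicate 3.

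The make-up of the ligand pool was compared after division by gene length, so that the genes share a scale. Tgfb1 made up 34.2% ± 8.92 of the summed per-length ligand level in wild type and 22.4% ± 5.11 in knockout (SD, n = 5 each). Tgfb3 made up 58.7% ± 8.88 and 70.4% ± 4.13, and Tgfb2 7.13% ± 2.41 and 7.20% ± 1.55. The shares of Tgfb1 ranged from 24.2% to 44.6% in wild type and from 14.9% to 29.2% in knockout, so the groups overlapped. On this per-length scale Tgfb3 was the largest part in all 10 libraries, from 48.8% to 75.5%. The order depends on the lengths used, 5042 bases for Tgfb1 and 3383 for Tgfb3. Without division by length, Tgfb1 lay above Tgfb3 in wild-type replicate 2 (131 against 107 CPM) and replicate 5 (190 against 140 CPM). In every other library it lay below Tgfb3. The mean shares without this division were 41.6% for Tgfb1 and 48.4% for Tgfb3 in wild type, and 28.7% and 60.7% in knockout. These shares describe the libraries and were not tested.

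**Figure D2:**
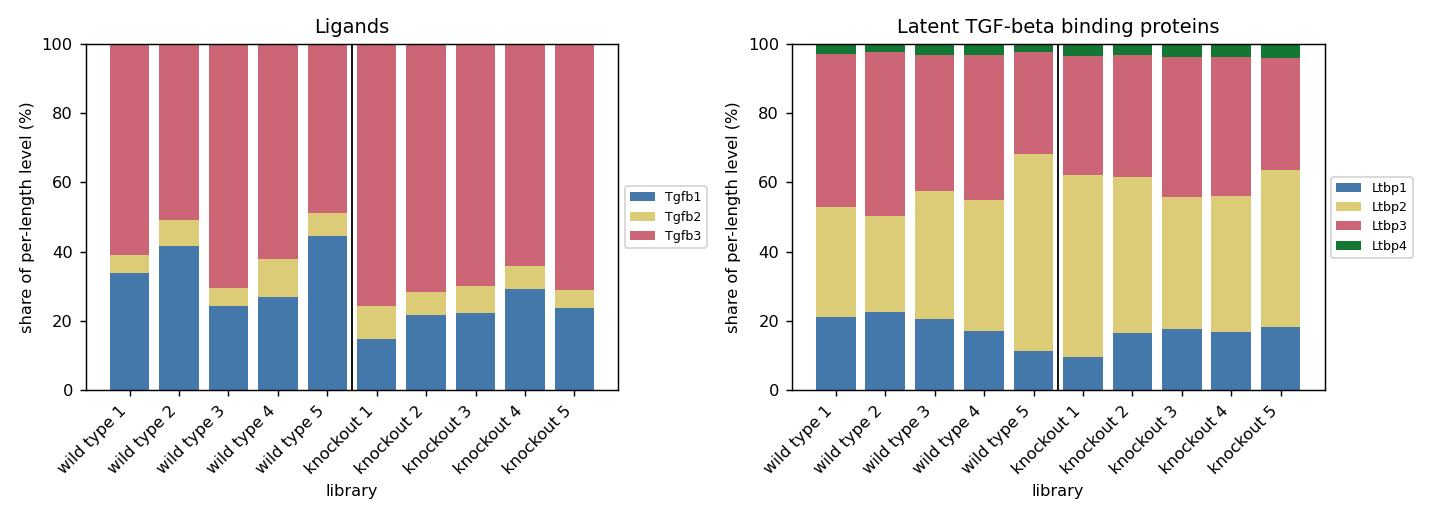
Share in percent (vertical axis) of each ligand in the summed per-length level of the 3 ligands (left), and of each latent TGF-beta binding protein in that of the 4 such proteins (right), in each library (horizontal axis, wild type left of the line). Tgfb3 fills at least 48.8% of every ligand bar, and Ltbp4 between 2.29% and 4.07% of the bars on the right.

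Upstream sequence is shown for Tgfb1 and Tgfb2, which lay far apart in level and whose start regions differ in layout. Each is the 250 bases before the gene's annotated start in RefSeq (GRCm38.p6), chr7:25686752-25687001 on the plus strand for Tgfb1 and chr1:186705990-186706239 on the minus strand for Tgfb2. Capitals mark matches, on either strand, to the TATA box TATAAA, the GC box GGGCGG, the CCAAT box CCAAT, the cAMP response element TGACGTCA, the AP-1 site TGANTCA and the Smad palindrome GTCTAGAC.
Tgfb1: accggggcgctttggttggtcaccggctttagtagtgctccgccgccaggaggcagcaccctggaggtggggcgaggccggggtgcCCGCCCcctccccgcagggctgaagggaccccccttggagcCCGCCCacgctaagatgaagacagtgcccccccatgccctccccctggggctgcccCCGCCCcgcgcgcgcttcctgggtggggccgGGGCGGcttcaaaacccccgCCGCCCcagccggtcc
Tgfb2: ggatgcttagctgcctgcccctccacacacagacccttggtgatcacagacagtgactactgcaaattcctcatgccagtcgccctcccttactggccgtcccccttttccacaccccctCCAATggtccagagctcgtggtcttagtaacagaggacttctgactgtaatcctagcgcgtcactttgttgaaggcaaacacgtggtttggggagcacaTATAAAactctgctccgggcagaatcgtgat
The Tgfb1 window was 75.2% G and C and held 5 GC boxes and no TATA box. The Tgfb2 window was 53.6% G and C and held a TATA box 31 bases before the start and 1 CCAAT box, but no GC box. Of 32817 such windows over all genes, 12.4% held a TATA box, 32.7% a GC box and 33.8% a CCAAT box. Neither window held the AP-1 site (6.75% of windows), the cAMP response element (1.55%) or the Smad palindrome (0.168%). Letters alone do not show which factor binds. In the printed windows no match overlapped another. Windows were found for 6 of the 8 genes, and none was used for Tgfb3 or Lrrc32.

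The 4 binding proteins gave different pictures. Ltbp1 and Ltbp3 had log2 fold changes of 0.01 and 0.08, Ltbp2 lay above the wild-type mean in all 5 knockout libraries, and Ltbp4 was higher in every knockout library than in any wild-type library. Ltbp1 (ENSMUSG00000001870; chromosome 17, 75005568 to 75392512, plus strand) encodes the founding member of the family and binds latent complexes of each ligand. It lay at 334, 368, 314, 317 and 203 CPM in wild-type replicates 1 to 5 and at 183, 340, 320, 350 and 355 CPM in knockout replicates 1 to 5. In each genotype 1 library lay well below the other 4, namely wild-type replicate 5 and knockout replicate 1. Between genotypes the log2 fold change was 0.01 (SE 0.20, edgeR adjusted p = 0.986), with a 95% interval of -0.43 to 0.45. Its sign turned with several settings, and it lay between -0.12 and 0.14 when single libraries were left out.

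Ltbp3 (ENSMUSG00000024940; chromosome 19, 5740904 to 5758532, plus strand), which also carries latent TGF-beta and is required for normal bone and tooth growth, lay at 348, 382, 296, 382 and 262 CPM in wild-type replicates 1 to 5 and at 326, 354, 361, 412 and 310 CPM in knockout replicates 1 to 5. The groups overlapped through most of their range. The log2 fold change was 0.08 (SE 0.13, edgeR adjusted p = 0.793), with a 95% interval of -0.21 to 0.37, and it was -0.0079 without wild-type replicate 5.

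Ltbp2 (ENSMUSG00000002020; chromosome 12, 84783212 to 84876532, minus strand) encodes the family member that does not bind latent TGF-beta and that takes part in microfibril and elastic fibre assembly. It lay at 395, 355, 443, 540 and 795 CPM in wild-type replicates 1 to 5 and at 786, 716, 536, 635 and 682 CPM in knockout replicates 1 to 5. Wild-type replicate 5 was the highest of all 10 libraries, and the other 4 wild-type libraries reached at most 540 CPM. The resulting log2 fold change was 0.41 (SE 0.21, edgeR adjusted p = 0.413), with a 95% interval of -0.05 to 0.87. It was 0.62 without wild-type replicate 5 (edgeR adjusted p = 0.337) and 0.27 once the trend of each library with gene length was removed (edgeR adjusted p = 0.608). Ltbp2 shares 764 exonic bases, or 9.34% of its exons, with D030025P21Rik, an antisense gene that had at most 71 counts in a library. The sources used here do not give the strand setting, so reads of the pair cannot be told apart.

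Ltbp4 (ENSMUSG00000040488; chromosome 7, 27305136 to 27337692, minus strand) encodes a binding protein that carries latent TGF-beta1 and helps to assemble elastic fibres in the mouse lung. It lay at 27.0, 23.9, 30.3, 36.1 and 25.3 CPM in wild-type replicates 1 to 5 and at 42.2, 41.5, 41.3, 48.1 and 48.6 CPM in knockout replicates 1 to 5. All 5 knockout libraries stood above all 5 wild-type libraries, and knockout replicate 5 was the highest. The means were 28.5 ± 4.87 and 44.3 ± 3.67 CPM (SD, n = 5 each), a log2 fold change of 0.64 (SE 0.13, 1.55-fold) with a 95% interval of 0.36 to 0.91. The edgeR adjusted p was 0.146, so it did not pass over all genes tested. DESeq2 gave a log2 fold change of 0.64 and an adjusted p of 0.00152. With single libraries left out the log2 fold change lay between 0.57 and 0.73 and the edgeR adjusted p between 0.0510 and 0.586, lowest without knockout replicate 5. It was 0.63 with the leukocyte score as a covariate and 0.56 with the gene length trend removed (edgeR adjusted p = 0.226). No other gene of the table overlaps Ltbp4.

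**Figure D3:**
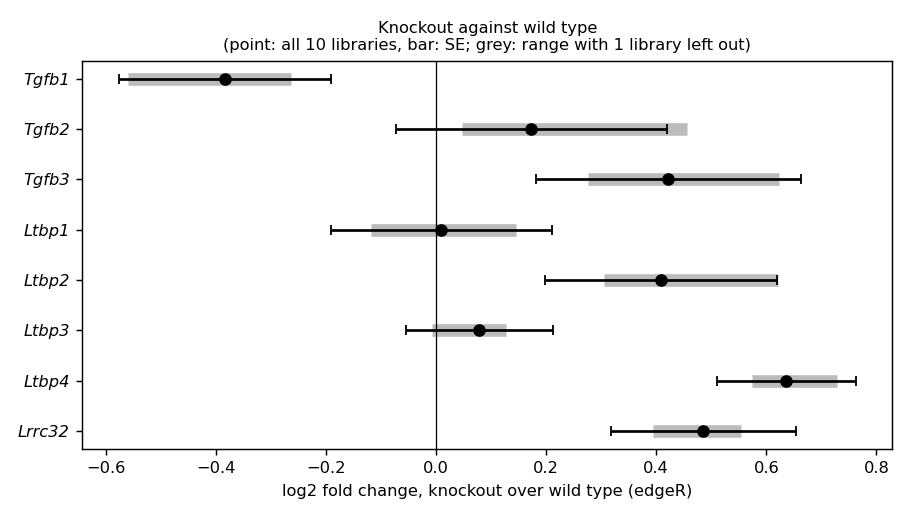
Log2 fold change of knockout over wild type (horizontal axis) for each gene, with points and black bars for the edgeR estimate and its SE over 10 libraries and grey bars for the range with 1 library left out. The grey bars of Ltbp1 (-0.12 to 0.14) and Ltbp3 (-0.0079 to 0.13) cross 0, while that of Ltbp4 stays between 0.57 and 0.73 and that of Tgfb1 between -0.56 and -0.26.

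The sequence before Ltbp4 is shown because it was the 1 gene of the set whose groups did not overlap. RefSeq gives 3 distinct windows for this gene, and counts per gene do not tell which start was used. The outermost one, at chr7:27337613-27337862 on the minus strand, is printed with the same motifs in capitals.
Ltbp4: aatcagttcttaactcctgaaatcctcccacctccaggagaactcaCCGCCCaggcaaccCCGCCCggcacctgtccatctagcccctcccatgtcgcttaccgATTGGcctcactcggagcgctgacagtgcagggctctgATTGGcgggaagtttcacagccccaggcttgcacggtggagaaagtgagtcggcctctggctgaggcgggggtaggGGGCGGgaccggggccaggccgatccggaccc
It was 64.4% G and C and held 3 GC boxes and 2 CCAAT boxes. None of the 3 windows held the TATA box, the AP-1 site, the cAMP response element or the Smad palindrome. The other two windows, which overlap each other, were 79.2% G and C, with 5 and 7 GC boxes, some of which overlap, and no CCAAT box. Among the 6 genes with a window the cAMP response element was found in 1, Ltbp1, at 73 bases before the start.

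By length-corrected level Ltbp2 and Ltbp3 together made up most of the LTBP pool. Ltbp2 held 38.3% ± 11.1 of the summed per-length level in wild type and 44.0% ± 5.77 in knockout, and Ltbp3 40.4% ± 6.81 and 36.5% ± 3.62 (SD, n = 5 each). Ltbp1 held 18.6% ± 4.46 and 15.8% ± 3.58. Ltbp4 held 2.77% ± 0.435 in wild type and 3.68% ± 0.283 in knockout, from 2.29% to 3.21% and from 3.30% to 4.07%, which do not overlap. The deposited length of Ltbp3 is 5190 bases, whereas its exons in GENCODE M21 cover 9069. With the M21 lengths the share of Ltbp3 was 28.3% in wild type and 24.9% in knockout, and the highest wild-type share of Ltbp4 then lay just above its lowest knockout share, so these groups overlapped. The summed LTBP level was 1.90 ± 0.439 times the summed ligand level in wild type and 1.94 ± 0.407 times in knockout, on the scale of deposited lengths.

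Lrrc32 had by far the highest level per length of the 8 genes. Lrrc32 (ENSMUSG00000090958; chromosome 7, 98489283 to 98502181, plus strand) is best known from regulatory T cells, platelets and endothelium, where its product docks latent TGF-beta. It lay at 970, 947, 767, 842 and 647 CPM in wild-type replicates 1 to 5 and at 915, 1355, 1443, 1164 and 964 CPM in knockout replicates 1 to 5. Of the knockout libraries 3 stood above every wild-type library, and replicates 1 and 5 lay within the upper wild-type range. The means were 835 ± 133 and 1168 ± 233 CPM (SD, n = 5 each), and the log2 fold change was 0.49 (SE 0.17, 1.40-fold, edgeR adjusted p = 0.325) with a 95% interval of 0.12 to 0.85 that is not adjusted over genes. With single libraries left out it lay between 0.39 and 0.55, with an edgeR adjusted p of 0.0770 to 0.604, lowest without knockout replicate 5.

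Of the cells that Lrrc32 is best known from, T cells had markers near 0, whereas some endothelial and platelet markers were present at low levels. The 6 T cell markers summed to at most 0.398 CPM in any wild-type library and 0.379 in any knockout library, none passed the filter, and Foxp3, which defines regulatory T cells, had at most 3 counts in a library. The 8 endothelial markers summed to 6.75 to 16.4 CPM over wild-type libraries and 7.48 to 14.5 CPM over knockout libraries, and 6 of them passed the filter, the highest being Vwf at 3.25 to 8.06 CPM. The 5 platelet markers summed to 13.3 to 81.6 CPM over wild-type libraries and 9.94 to 191 CPM over knockout libraries, and 2 of the 5 passed the filter. These were Pf4, which macrophages also make, with up to 184 CPM, and Itga2b, the platelet integrin alpha chain, with 2.55 to 5.24 CPM. Gp9 and Gp1bb had at most 3 and 1 counts in a library. The part of these cells in the level of Lrrc32 was not tested.

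Divided by length, Lrrc32 averaged 178 ± 28.4 CPM per kilobase in wild type and 249 ± 49.6 in knockout (SD, n = 5 each), and ranked 268th and 173rd among the 14360 genes tested. Its lowest library lay above the highest library of the next gene in both genotypes. On this scale Ltbp3 (64.3 ± 10.3), Ltbp2 (61.8 ± 21.5) and Tgfb3 (52.6 ± 18.8) followed in wild type, with overlapping ranges. Ltbp1 (29.3 ± 5.90) and Tgfb1 (28.9 ± 4.98) came next, again with overlapping ranges, and the range of Ltbp1 also met that of Tgfb3. Tgfb2 (6.25 ± 2.65) and Ltbp4 (4.41 ± 0.753) were the lowest, and Tgfb1 lay above Tgfb2 without overlap, whereas Tgfb2 and Ltbp4 overlapped. In knockout the per-kilobase order was Lrrc32, Ltbp2 (82.0 ± 11.4), Tgfb3 (70.4 ± 16.8), Ltbp3 (68.0 ± 7.55), Ltbp1 (29.5 ± 6.87), Tgfb1 (22.2 ± 6.50), Tgfb2 (7.04 ± 1.46) and Ltbp4 (6.86 ± 0.568). There Ltbp3 lay above Ltbp1, and Tgfb1 above Tgfb2, without overlap. Ltbp1 lay above Tgfb1 in all 5 libraries although the ranges of the groups overlapped, and Tgfb2 lay above Ltbp4 in 2 of 5. The place of Ltbp3 depends on its length, since its wild-type mean was 36.8 CPM per kilobase with the M21 length.

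**Figure D4:**
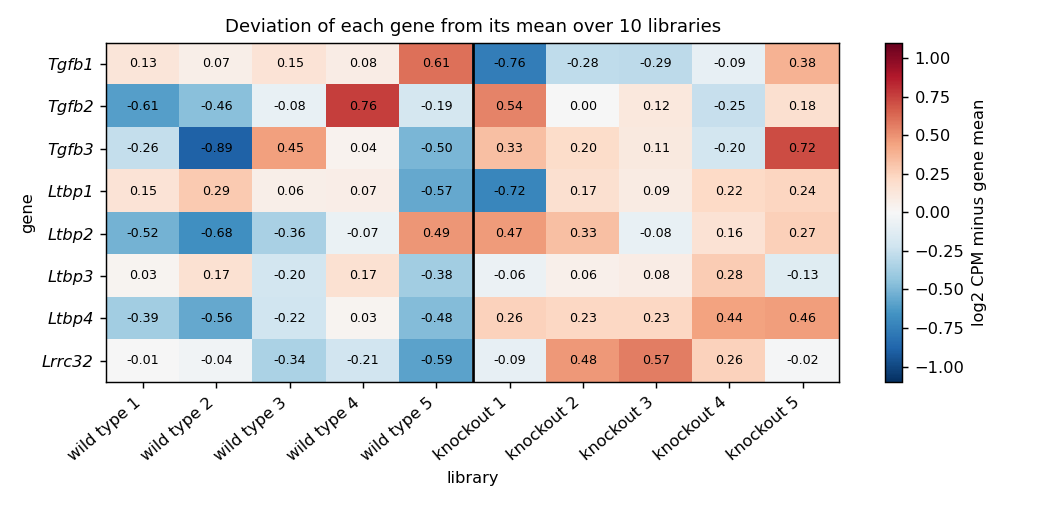
Deviation of each gene (rows) in each library (columns, wild type left of the line) from its mean log2 CPM over the 10 libraries, with red above and blue below the mean. Wild-type replicate 5 combines high Tgfb1 (0.61) and Ltbp2 (0.49) with low Ltbp1 (-0.57) and Lrrc32 (-0.59), and the Ltbp4 row is blue or near 0 in wild type and red in all knockout libraries.

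Single libraries stood apart for several genes at once. Wild-type replicate 5 had the highest Tgfb1 and Ltbp2 of all libraries and the lowest Ltbp3 and Lrrc32. Knockout replicate 1 had the lowest Tgfb1 and Ltbp1 of all libraries. Ltbp1 thus was low in both of these libraries, while Tgfb1 was at opposite ends. Knockout replicate 5 had the highest Tgfb3 and Ltbp4, and the highest Tgfb1 among the knockout libraries.

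For each gene the 3 genes whose log2 CPM rose and fell most alike over the 10 libraries were sought, by Pearson's r. They came from 12043 others (mean log2 CPM no lower than 1), and r does not compare levels. The points share their library and culture, and the highest of so many values is large by selection, so these are descriptions only. For Tgfb3 they were Sh3bgr (r = 0.97), Cnn2 (0.96) and Acta2 (0.96). Cnn2 and Acta2 encode a calponin and smooth muscle actin of the contractile apparatus. For Ltbp2 they were Eln (0.92), which encodes elastin, the basement membrane zone collagen Col15a1 (0.91) and the mitotic kinesin Kif23 (0.89). For Tgfb1 they were Agpat2 (0.98), an enzyme of phospholipid synthesis, the cell cycle factor E2f4 (0.97) and Ninj1 (0.97), which ruptures the membrane of dying cells. For Tgfb2 they were the kinase Nuak1 (0.96), the netrin receptor Unc5b (0.95) and Srpx (0.93).

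For Lrrc32 the closest were Gm14410 (r = 0.97), the junctophilin Jph1 (0.96) and Lrch2 (0.94), and for Ltbp4 they were Klhl23 (0.92), Ccdc14 (0.91) and Xkr5 (0.91). After the genotype means were removed, r was 0.72 for Klhl23 and 0.52 for Xkr5 with Ltbp4. For Ltbp1 they were Mogat2 (0.93), Cul7 (0.91) and Mark1 (0.91), and for Ltbp3 the tensin Tns2 (0.91), Emx2os (0.90) and the scavenger receptor Scara3 (0.90). None of the 8 genes was among the 3 closest to another.

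The rest of the pathway was read from 5 lists, in none of which a gene passed edgeR over all genes tested. Among 16 partners and processing enzymes of the latent complex 11 lay higher and 5 lower in knockout, with a median log2 fold change of 0.22 against -0.01 over all genes tested. Unadjusted p was under 0.05 for 5 of the 16, all higher (7.19% of all genes tested were), and DESeq2 called 1, Fn1 (1.02% of genes higher). With the length trend of each library removed edgeR again called 0 of the 16, and the part of that trend in the values of single genes of this list was not tested. Fn1, whose product fibronectin anchors LTBPs, averaged 4692 ± 893 CPM over wild-type libraries and 9223 ± 3459 over knockout ones (SD, n = 5 each), a log2 difference of 0.98 (SE 0.30, edgeR adjusted p = 0.282). Emilin1, which binds the TGF-beta1 precursor and hinders its processing, averaged 232 ± 45.4 CPM in wild-type libraries and 330 ± 58.0 in knockout ones, with an edgeR adjusted p of 0.300. Fbn1 and Fbn2, the fibrillins to which LTBPs attach, had values of 0.80 (SE 0.30) and 0.93 (SE 0.35), each with an edgeR adjusted p of 0.343. Without knockout replicate 5, the library with the lowest length slope, edgeR called 2 of the 16 (0.884% of all genes higher), Fn1 (adjusted p = 0.0329) and Fbn1 (adjusted p = 0.0440).

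Of 16 activators of latent TGF-beta 15 passed the filter, Itgb6 being the exception, with 11 higher and 4 lower and a median of 0.18. Unadjusted p was under 0.05 for 1 of the 15, which was lower (6.1% of all genes tested were), and DESeq2 called 0. That gene was Itgb3, the beta chain of an RGD-binding integrin, which averaged 12.5 ± 4.13 CPM in wild-type libraries and 8.54 ± 2.33 in knockout ones (SD, n = 5 each), with an edgeR adjusted p of 0.371. Thbs1, whose product thrombospondin 1 can free TGF-beta from its propeptide, differed by 0.52 on the log2 scale (SE 0.25, adjusted p = 0.385 with edgeR), Itgav, the alpha chain of the activating integrins, 0.42 (SE 0.23, adjusted p = 0.423), and the urokinase gene Plau -0.27 (SE 0.15, adjusted p = 0.445).

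Of 14 receptor and Smad pathway genes 10 lay higher and 4 lower, with a median of 0.10. Unadjusted p was under 0.05 for 1 of the 14 in each direction (7.19% of all genes tested higher and 6.1% lower) and DESeq2 called 0. Eng, the co-receptor endoglin, differed by -0.31 on the log2 scale (SE 0.11, adjusted p = 0.335 with edgeR), and Smad4, the shared partner of receptor-activated Smads, 0.22 (SE 0.09, adjusted p = 0.361). The type I receptor gene Tgfbr1 differed by 0.47 (SE 0.23, adjusted p = 0.400) and the gene of the Smad repressor Skil by 0.30 (SE 0.16, adjusted p = 0.411). Among 8 extracellular binders of TGF-beta 7 passed the filter, all but A2m, 5 higher and 2 lower with a median of 0.15, unadjusted p was under 0.05 for 1 (7.19% of all genes tested higher), and DESeq2 called 1 (1.02% higher). Both were Cd109, a co-receptor that restrains TGF-beta signalling, which averaged 27.8 ± 4.14 CPM over wild-type libraries and 38.9 ± 3.03 over knockout ones (SD, n = 5 each). Its groups were apart, at 23.1 to 33.4 and at 35.5 to 43.9 CPM, with a log2 difference of 0.48 (SE 0.12) and an adjusted p of 0.231 with edgeR and 0.0150 with DESeq2. The proteoglycans Fmod and Dcn had values of 1.13 (SE 0.71, edgeR adjusted p = 0.481) and -0.45 (SE 0.41, adjusted p = 0.619), and Tgfbi 0.45 (SE 0.42, adjusted p = 0.622).

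Of 24 genes known to respond to TGF-beta 17 lay higher and 7 lower, with a median of 0.08. Unadjusted p was under 0.05 for 6 of the 24 higher and 1 lower, against 7.19% and 6.1% of all genes tested. DESeq2 called 3, all higher (1.02% of genes), and edgeR called 3 without knockout replicate 5, again higher (0.884% of genes). Both sets of 3 were Adam12, Col3a1 and Fn1. Knockout replicate 5 was the library with the lowest length slope. With the length trend of each library removed, over all 10 libraries, edgeR called 0 of the 24, as it did without that step. The part of that trend in the values of single target genes was not tested. Adam12, a membrane protease, averaged 60.9 ± 20.2 CPM over wild-type libraries and 152 ± 44.9 over knockout ones (SD, n = 5 each), and its groups did not overlap. Its log2 difference was 1.32 (SE 0.27), with an adjusted p of 0.166 with edgeR. The collagen genes Col3a1 and Col1a1 differed by 1.28 (SE 0.35, edgeR adjusted p = 0.243) and 0.79 (SE 0.25, adjusted p = 0.295). Both collagens are also fibroblast markers, whose summed level is given above. The 1 lower gene, named after its value was seen, was Cdkn2b, a cell cycle inhibitor gene, with a log2 difference of -0.77 (SE 0.27, edgeR adjusted p = 0.330). The lists share Skil, Smad7, Fn1, Lox and Tgfbi, and no list was tested as a set.

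**Figure D5:**
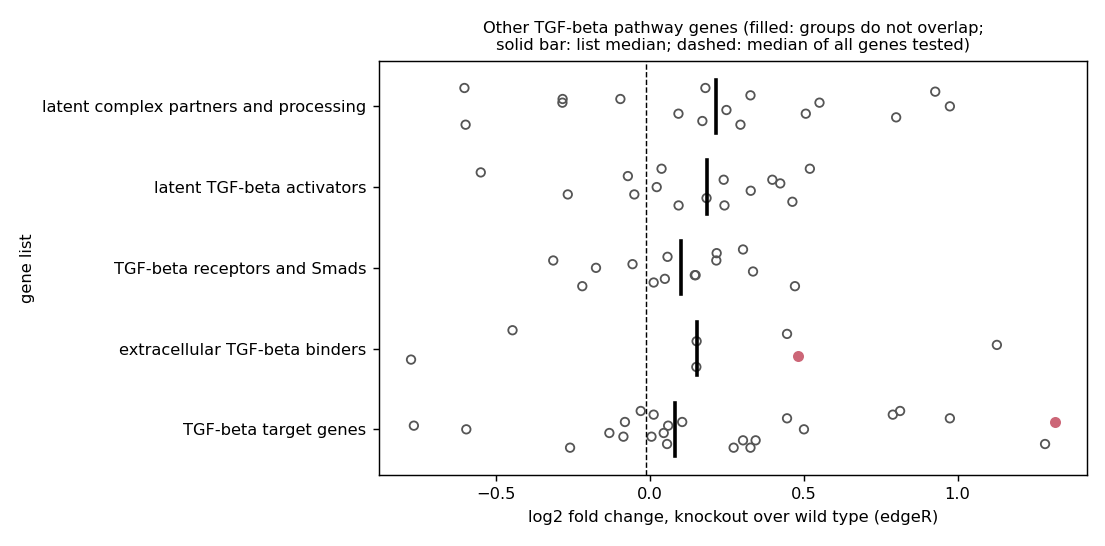
Log2 fold change of knockout over wild type (horizontal axis, edgeR) for each tested gene of the 5 pathway lists (rows, with points spread vertically for legibility), with a bar at each list's median and a dashed line at the median of all genes tested, -0.01. Filled points are Cd109 and Adam12, whose groups do not overlap, and list medians lie between 0.08 and 0.22.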

How the data were processed

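The authors deposited unnormalized counts of reads for each gene, 1 column a library, and a gene length that was used as given. Versions listed in the submitters' processing notes are HTSeq 0.6.1, STAR 2.5 and DESeq2 2, with build mm10 and no roles. Neither annotation release nor strandedness is stated there. RNA was poly(A)-selected, per the labels' protocols.

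Groups came from the genotype labels in the titles. Genes kept by filterByExpr (14360 of 28582 with a count) were tested with edgeR 4.0.16 in R 4.3.3 (TMM, quasi-likelihood F test, no covariate, Benjamini-Hochberg over all genes, 0.05). SE was the absolute log2 fold change over the square root of F. Log2 CPM used a prior count of 2. Code was tested on simulated data. Alternatives used limma 3.58.1 and DESeq2 1.42.0, other scalings and filters, a replicate block, each library left out, a leukocyte covariate and a length offset. The M21 length was added after the data were seen. Genes and lists were chosen with earlier results of these data known. Named were the 8 genes, Mrc2, up to 4 genes of smallest p per pathway list, the 3 genes most alike and defining markers; Cdkn2b, the other fibroblast, mesothelial and epithelial markers and overlapping or untested genes were named outside this rule. Ccn1 and Ccn2 were matched by gene ID. No pair of libraries agreed within sampling noise (chi-square over its degrees of freedom was at least 17.5). In each library 3 counts are 0.0971 to 0.161 CPM, which covers counting error only. Some items are not reported here.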

Additional observations from a re-analysis of the deposited data

Results flagged for a closer look

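Of 32 groups of 5 values examined (the 8 genes and Mrc2 in CPM and 7 per-length shares, in each genotype), 4 held a library far from the other 4, and chance alone gives about 5% of such groups. Tgfb1 in wild-type replicate 5 was at 190 CPM, with the other wild-type libraries at 131 to 139 CPM. Tgfb2 in wild-type replicate 4 was at 62.6 CPM, with the others at 24.2 to 34.9 CPM. Ltbp1 in knockout replicate 1 was at 183 CPM, with the others at 320 to 355 CPM, and its share of the summed per-length LTBP level there was 9.55%, with the others at 16.7% to 18.4%. Both Ltbp1 values come from the same counts.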

How the results depend on the processing

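Ltbp4 and Lrrc32 kept a higher level in knockout under all 19 alternatives, as did Tgfb2, Tgfb3 and Ltbp2, and Tgfb1 kept a lower one. All alternatives draw on the same 10 libraries. For Ltbp4, whose groups did not overlap, leaving out 1 library could not turn the sign, so those settings do not test its direction. For Lrrc32 and Ltbp2 all 5 knockout libraries lay above the wild-type mean. Leaving out 1 knockout library could therefore not turn the sign of either gene. Ltbp1 turned negative with total counts as library size (-0.028), with the replicate block (-0.0020) and with the gene length offset (-0.12), and ranged from -0.12 to 0.14 with single libraries left out. Ltbp3 ranged from -0.0079 to 0.13. The cause was not tested. The count of genes called, 2 with edgeR, was 243 with DESeq2, 1 with limma-voom, 1 with the gene length offset, 0 with the replicate block, and 1 to 203 with single libraries left out, the 203 without knockout replicate 5. Of the 8 genes DESeq2 called 1, Ltbp4 (0.64), and none was called with any library left out. DESeq2 called 1 gene among the partners and processing enzymes, 1 among the extracellular binders and 3 among the target genes. With single libraries left out edgeR called 0 to 2 partners and 0 to 3 target genes.

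Same-numbered libraries had correlations of deviations from -0.24 to 0.38, over 0.1 in 2 of 5 pairs, and 1 of 5 wild-type libraries correlated best with its own number. So few pairs cannot settle whether the replicate numbers pair the samples. With the replicate block the SE of Tgfb1 went from 0.19 to 0.13 (edgeR adjusted p = 0.317), and that of Tgfb2 from 0.25 to 0.27. With the replicate block Mrc2 had a log2 fold change of -1.78 and missed the threshold (edgeR adjusted p = 0.0542). Differences in shares moved by less than 1 SD within genotypes under the alternatives run. For the ligands the M21 lengths equal the deposited ones, so that alternative could not move their shares. Changes as small as those of Tgfb2 and Ltbp3 are within the spread of 5 libraries.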
